A study of Homo sapiens with 5 samples.

Results

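The 10 tubulin genes examined here are 4 alpha tubulins (TUBA1A, TUBA1B, TUBA1C and TUBA4A) and 6 beta tubulins (TUBB, TUBB2A, TUBB2B, TUBB3, TUBB4B and TUBB6). They were chosen by gene symbol from 12497 gene rows, and TUBB2B was singled out from its paralogs because its level had already been seen to be low in one library. The 5 libraries, 1 per group, come from cultures of the line MDA-MB-231, which derives from human breast cancer without hormone receptors or HER2 amplification and looks mesenchymal. The si-LY6E-DT library carries a label of knockdown of LY6E-DT, a long noncoding RNA, with a Smart Silencer, and its reference si-NC carries the label of a negative control. A further library is labelled as an HNRNPC knockdown (si-HNRNPC), and the remaining pair is the RNA recovered with an anti-HNRNPC antibody on magnetic beads (the immunoprecipitate) and its input lysate. In the treatment text the silencers of the 2 targets are swapped, and groups were taken from each library's own label. Groups are not replicated and differences lack a replicate check, so values stand without SD, SE or p-value, and every comparison is one of single libraries.

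Microtubules are hollow polymers of dimers, each made of an alpha and a beta tubulin, and they carry organelles, shape the cell and form the mitotic spindle. The proteins of one class are nearly alike over the folded body and differ mostly in the acidic tail at the carboxyl end, which faces outward and is read by motors and modifying enzymes. Cells also tune tubulin mRNA by autoregulation. When unpolymerized tubulin is in excess, TTC5 binds the first residues of a tubulin chain as it leaves the ribosome, and the CCR4-NOT deadenylase then degrades that mRNA. TUBB, TUBB4B, TUBA1B and TUBA1C are broadly used isotypes, TUBB3 and TUBB2B are best known from neurons, TUBA1A is the main alpha tubulin of developing neurons, and TUBB6 is a divergent isotype found in many tissues.

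The start of the coding sequence is shown because it encodes the residues that TTC5 reads. The reference bases are those of GENCODE 29 on GRCh38, from 1 coding transcript per gene, written 5′ to 3′ with the codons after the start codon in capitals.
TUBA1A, TUBA1B and TUBA1C: atgCGTGAGTGC
TUBA4A: atgCGTGAATGC
TUBB and TUBB4B: atgAGGGAAATC
TUBB3 and TUBB6: atgAGGGAGATC
TUBB2A: atgCGCGAGATC
TUBB2B: atgCGTGAGATC
The alpha genes all open with codons for methionine, arginine, glutamate and cysteine, and the beta genes with codons for methionine, arginine, glutamate and isoleucine, so the genes of a class differ here only in synonymous bases.

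The last 66 coding bases, stop codon included, encode the variable tail and are shown because they vary among most of the beta isotypes. Capitals mark bases that differ from TUBB2B in an alignment, or that have no partner in it.
TUBB2B: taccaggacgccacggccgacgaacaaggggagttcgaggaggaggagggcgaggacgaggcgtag
TUBB2A: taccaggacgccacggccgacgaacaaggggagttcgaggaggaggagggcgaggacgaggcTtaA
TUBB4B: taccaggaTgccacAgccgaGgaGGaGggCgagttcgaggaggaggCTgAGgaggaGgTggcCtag
TUBB: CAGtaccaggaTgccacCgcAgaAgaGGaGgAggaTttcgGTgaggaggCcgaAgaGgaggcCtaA
TUBB6: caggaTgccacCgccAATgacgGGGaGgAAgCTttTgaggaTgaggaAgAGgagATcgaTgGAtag
TUBB3: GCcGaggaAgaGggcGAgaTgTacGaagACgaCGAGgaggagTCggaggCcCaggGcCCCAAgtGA
TUBB2A held 2 capitals, TUBB4B 14, TUBB 19, TUBB6 23 and TUBB3 28. These counts include bases without a partner, since each gene was cut to its own last 66 bases and tails differ in length. The 2 of TUBB2A are synonymous, in the last codon and the stop codon, so the residues encoded here are those of TUBB2B. Over the whole coding sequence TUBB2A and TUBB2B differed at 25 of 1338 aligned bases (98.1% identity) and shared an identical stretch of 725 bases. The other beta paralogs were between 84.9% (TUBB) and 88.4% (TUBB3) identical to TUBB2B. Among alpha genes, TUBA1A, TUBA1B and TUBA1C were 96.3% to 97.3% identical to each other, and TUBA4A was 85.0% to 86.3% identical to them.

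All 10 genes are annotated as protein-coding with 4 exons in the transcript used, and the positions given are those of GENCODE 29 on GRCh38, not of the build GRCh37 that the submitters' processing notes name. TUBB2A (chr6:3153669-3157526) and TUBB2B (chr6:3224261-3231730) lie on the minus strand with 66.7 kb between them, and TUBB (chr6:30720201-30725426) lies farther along the same chromosome on the plus strand. TUBA1B (chr12:49127782-49131397) and TUBA1A (chr12:49184796-49189324) are on the minus strand, and TUBA1C (chr12:49188736-49274603) is on the plus strand and overlaps the start of TUBA1A. TUBA4A (chr2:219249711-219278170, minus strand), TUBB4B (chr9:137241213-137243707, plus strand), TUBB3 (chr16:89921392-89938761, plus strand) and TUBB6 (chr18:12307669-12344320, plus strand) stand apart from the rest. Shared sequence bears on how reads can be assigned. Of all stretches of 100 bases in the TUBB2B transcript, 46.2% also occur in a transcript of another gene, and 42.4% occur in one of TUBB2A. The share was 56.4% for TUBB2A, 37.2% for TUBA1B, 18.3% for TUBA1A and 11.5% for TUBA1C, and from 0% (TUBB6) to 5.10% (TUBB) for TUBB6, TUBA4A, TUBB4B and TUBB. For TUBB3 it was 89.0%, through the readthrough gene AC092143.1, which shares its exons and was listed in the si-HNRNPC-labelled library at 0.243 FPKM. The values of TUBB2A, TUBB2B, TUBB3, TUBA1A, TUBA1B and TUBA1C are therefore uncertain as far as the authors' counting could split reads among copies. Strand use is not stated, so reads of TUBA1A and TUBA1C, or of TUBB2B and its opposite-strand neighbour PSMG4, cannot be told apart where they overlap.

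The promoters of TUBB2A and TUBB2B are shown because these neighbouring paralogs, nearly alike in coding sequence, had different levels in these libraries. The sequences are RefSeq windows on GRCh38.p14 from 250 bases before to 50 after the annotated start, on the minus strand, with capitals for matches on either strand to the TATA box, searched as TATAAA, to the CCAAT box, searched by those 5 letters, and to the GC box, searched as GGGCGG; no match shared a base with one of another motif.
TUBB2A, chr6:3157495-3157794: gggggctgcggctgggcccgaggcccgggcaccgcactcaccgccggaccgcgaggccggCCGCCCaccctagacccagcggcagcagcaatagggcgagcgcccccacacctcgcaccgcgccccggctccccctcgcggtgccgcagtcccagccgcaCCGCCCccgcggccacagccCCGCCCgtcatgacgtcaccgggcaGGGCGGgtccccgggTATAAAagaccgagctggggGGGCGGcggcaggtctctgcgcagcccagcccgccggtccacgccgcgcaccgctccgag
TUBB2B, chr6:3227604-3227903: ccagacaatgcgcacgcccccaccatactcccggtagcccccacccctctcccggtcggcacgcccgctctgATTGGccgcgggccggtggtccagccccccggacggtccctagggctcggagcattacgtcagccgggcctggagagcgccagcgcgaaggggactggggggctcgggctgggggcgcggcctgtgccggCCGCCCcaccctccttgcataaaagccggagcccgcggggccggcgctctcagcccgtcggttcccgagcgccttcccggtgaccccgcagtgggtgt
TUBB2A held 1 TATA box match, no CCAAT box match and 5 GC box matches, while TUBB2B held no TATA box match, 1 CCAAT box match and 1 GC box match. Of 35116 RefSeq promoter windows of that length, 11.5% held the TATA box letters, 34.6% those of the CCAAT box and 45.0% those of the GC box. The windows were 55.4% identical in an alignment, and their longest identical stretch was 11 bases. These matches describe letters and do not show binding. Near matches were not counted, such as the letters cataaa in the TUBB2B window.

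The values are FPKM, fragments scaled to transcript length and library size, so that levels of different genes can be compared within a library. Tables held 11306 to 11755 genes and their FPKM summed to between 157407 (immunoprecipitate) and 272563 (RIP input). Mitochondrially encoded mRNAs took between 7.20% and 9.92% of summed FPKM in 4 libraries and 29.8% in the RIP input. Sequencing depth is unknown. HNRNPC itself was at 40.1 FPKM in si-LY6E-DT, 48.8 in the si-HNRNPC-labelled library and 52.2 in si-NC, and at 58.4 in the immunoprecipitate and 67.4 in the input, so it was nearly as high under its knockdown label as in si-NC and that library is called by its label only. The level of LY6E-DT was not analysed here. Of the markers of the line, VIM (157 to 538 FPKM), CD44 (17.1 to 53.5), AXL (165 to 351) and FOSL1 (36.0 to 299) were present in all 5 libraries and SPARC (14.2 to 37.8) in 3, ERBB2 and EPCAM were at most 8.61 and 3.30 FPKM, and ESR1, PGR and CDH1 had no value here. None of 10 neuron markers had a value in any library. Of 5 fibroblast markers, 3 had values, in si-LY6E-DT (sum 3.82 FPKM) and si-NC (sum 2.41) alone. Among leukocyte markers, CD68 was at 7.86 FPKM in si-LY6E-DT, 74.8 in the si-HNRNPC-labelled library and 4.86 in si-NC, and at 17.4 in the immunoprecipitate and 63.3 in the input. CD14 was at 1.06 FPKM in the immunoprecipitate and 0.959 in the input, and PTPRC and CD3E had no value.

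TUBB was the most abundant tubulin mRNA in every library. TUBB was at 537 FPKM in si-LY6E-DT, 602 in the si-HNRNPC-labelled library and 509 in si-NC, and at 208 in the immunoprecipitate and 583 in the input. It ranked between place 23 (si-LY6E-DT) and place 29 (RIP input) among all genes of the 4 libraries that were not immunoprecipitated. TUBB4B, a beta tubulin abundant in dividing and ciliated cells, came next in those 4 libraries, at 328 FPKM in si-LY6E-DT, 389 in the si-HNRNPC-labelled library, 344 in si-NC and 211 in the input. TUBA1B led the alpha class everywhere, at 224 FPKM in si-LY6E-DT, 277 in the si-HNRNPC-labelled library and 231 in si-NC. TUBA1C followed at 72.3 FPKM in si-LY6E-DT, 98.9 in the si-HNRNPC-labelled library and 80.1 in si-NC. These 4 genes varied by less than 1.4-fold among the 3 cell libraries, in which the ratio of highest to lowest was 1.18 for TUBB, 1.19 for TUBB4B, 1.24 for TUBA1B and 1.37 for TUBA1C. The other members were lower and more variable, with a ratio of 1.44 for TUBA4A, 2.04 for TUBB2A, 2.43 for TUBB6, 4.51 for TUBA1A, 5.65 for TUBB3 and 13.99 for TUBB2B. The ratio of TUBB2B rests on the low si-LY6E-DT value for which it was picked, so nothing is read from its place. Without replicates it cannot be said which neighbours in this order differ beyond the spread of a library.

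**Figure D1:**
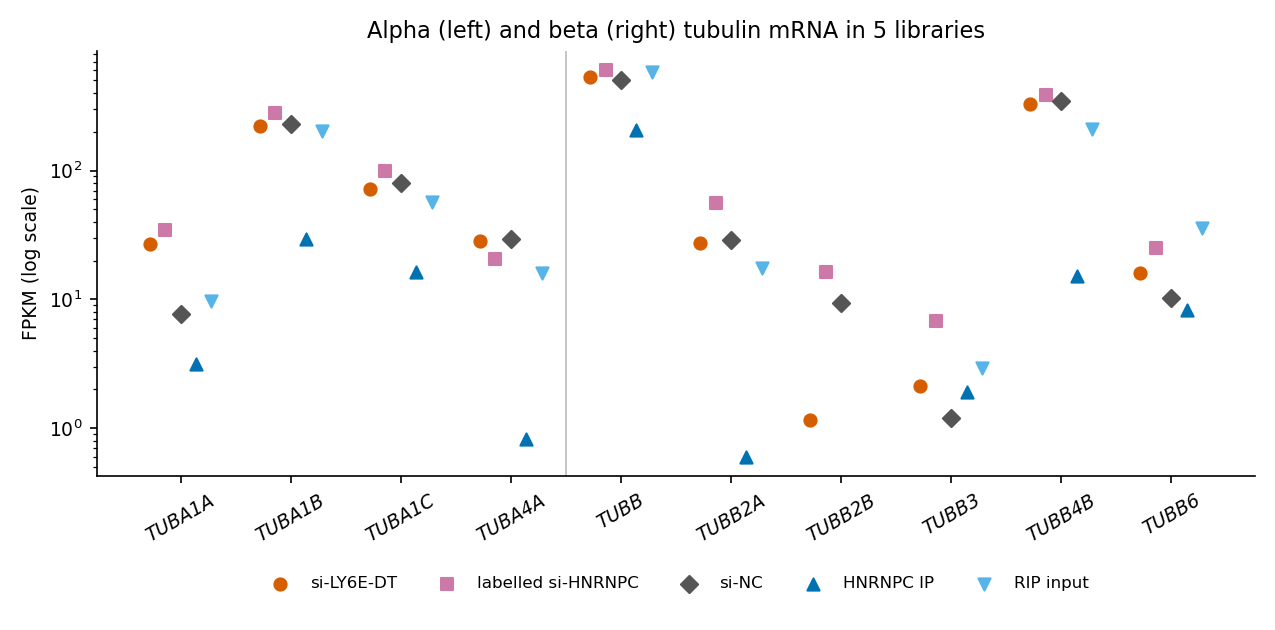
FPKM (log scale) of the 10 tubulin genes in the 5 libraries, 1 point per library, with alpha genes left of the line and beta genes right of it. TUBB, TUBB4B and TUBA1B are the 3 highest of these genes in the cell libraries. TUBB2B is at 1.166 FPKM in si-LY6E-DT, the low value for which it was picked, against 9.33 in si-NC.

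As a class, the 4 alpha genes summed to 351 FPKM in si-LY6E-DT, 431 in the si-HNRNPC-labelled library and 349 in si-NC. The beta genes summed to 911 FPKM in si-LY6E-DT, 1095 in the si-HNRNPC-labelled library and 903 in si-NC. The alpha to beta ratio was thus 0.386 in si-LY6E-DT, 0.394 in the si-HNRNPC-labelled library and 0.386 in si-NC. The main isotypes took similar shares of the beta class in the 3 cell libraries. TUBB made up 58.9% of beta tubulin FPKM in si-LY6E-DT, 55.01% in the si-HNRNPC-labelled library and 56.3% in si-NC, and TUBB4B made up 36.0%, 35.5% and 38.1% in those libraries in the same order. TUBB2B made up 0.128% in si-LY6E-DT, 1.49% in the si-HNRNPC-labelled library and 1.03% in si-NC. TUBA1A made up 7.69% of alpha tubulin FPKM in si-LY6E-DT, 7.999% in the si-HNRNPC-labelled library and 2.19% in si-NC.

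**Figure D2:**
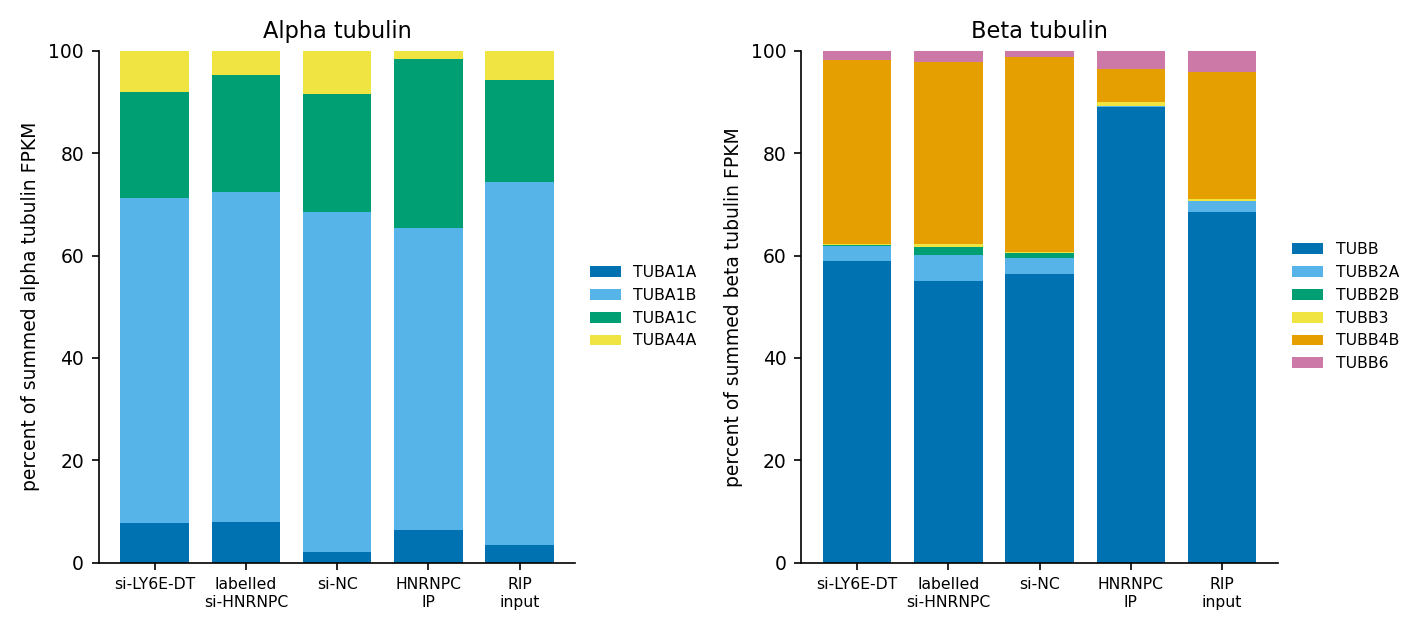
Each isotype as a percentage of the summed alpha (left) or beta (right) tubulin FPKM of its library, stacked to 100%. TUBA1B and TUBB are the largest parts of every bar, and TUBB takes 88.9% of the beta class in the immunoprecipitate against 68.6% in the RIP input.

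The comparison of si-LY6E-DT with si-NC rests on the label, since the level of LY6E-DT was not analysed here. HNRNPC was lower in si-LY6E-DT (40.1 FPKM) than in the si-HNRNPC-labelled library (48.8) or si-NC (52.2). The treatment text swaps the silencers, and whether these libraries were exchanged was not tested. A gene is called higher or lower here when log2((FPKM + 1)/(reference FPKM + 1)) reaches 1 or −1, a rule of size and not a test, over genes with a mean of at least 1 FPKM. This scale understates the change of low genes. Of the 10 tubulin genes, 1 was higher (TUBA1A) and 1 lower (TUBB2B) at least 2-fold, where 1.66% of 10473 genes were higher and 0.888% lower. The contrast that singled out TUBB2B is this one, so nothing is read from its place in it. TUBB2B was at 1.166 FPKM in si-LY6E-DT against 9.33 in si-NC, a ratio of 0.125 and a log2 change of −2.25. TUBB2A, its near-identical neighbour, was at 27.3 FPKM in si-LY6E-DT against 29.1 in si-NC (log2 −0.09). TUBB2B was therefore 23.4 times below TUBB2A in si-LY6E-DT, against 3.12 times below it in si-NC. PSMG4, which overlaps TUBB2B on the opposite strand, was at 2.34 FPKM in si-LY6E-DT, against 2.30 in si-NC. The FPKM of TUBB2A and TUBB2B were also summed, a calculation added after the data were seen. The pair was at 28.4 FPKM in si-LY6E-DT against 38.4 in si-NC (log2 −0.42). TUBB2A makes up most of this sum, so a fall of TUBB2B alone could not bring it to 2-fold. The sum is therefore no check on the value of TUBB2B.

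TUBA1A was at 27.0 FPKM in si-LY6E-DT against 7.65 in si-NC, a ratio of 3.53 and a log2 change of 1.70, and 31 genes (0.296%) were at least as high. Its neighbours TUBA1B (224 FPKM in si-LY6E-DT against 231 in si-NC, log2 −0.05) and TUBA1C (72.3 against 80.1, log2 −0.15) were not called. The 3 genes summed to 323 FPKM in si-LY6E-DT against 319 in si-NC (log2 0.02). TUBA1B makes up most of this sum, so the sum is no check on the value of TUBA1A. TUBB6 (16.0 FPKM in si-LY6E-DT against 10.3 in si-NC, log2 0.59) and TUBB3 (2.11 against 1.21, log2 0.50) were the next highest and stayed under 2-fold. The remaining members, TUBB, TUBB4B and TUBA4A, had log2 changes from −0.07 to 0.08. The median over the 10 members was −0.05, against 0.04 over all genes tested. In bulk RNA, fewer cells that express a gene and less RNA per cell cannot be told apart.

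**Figure D3:**
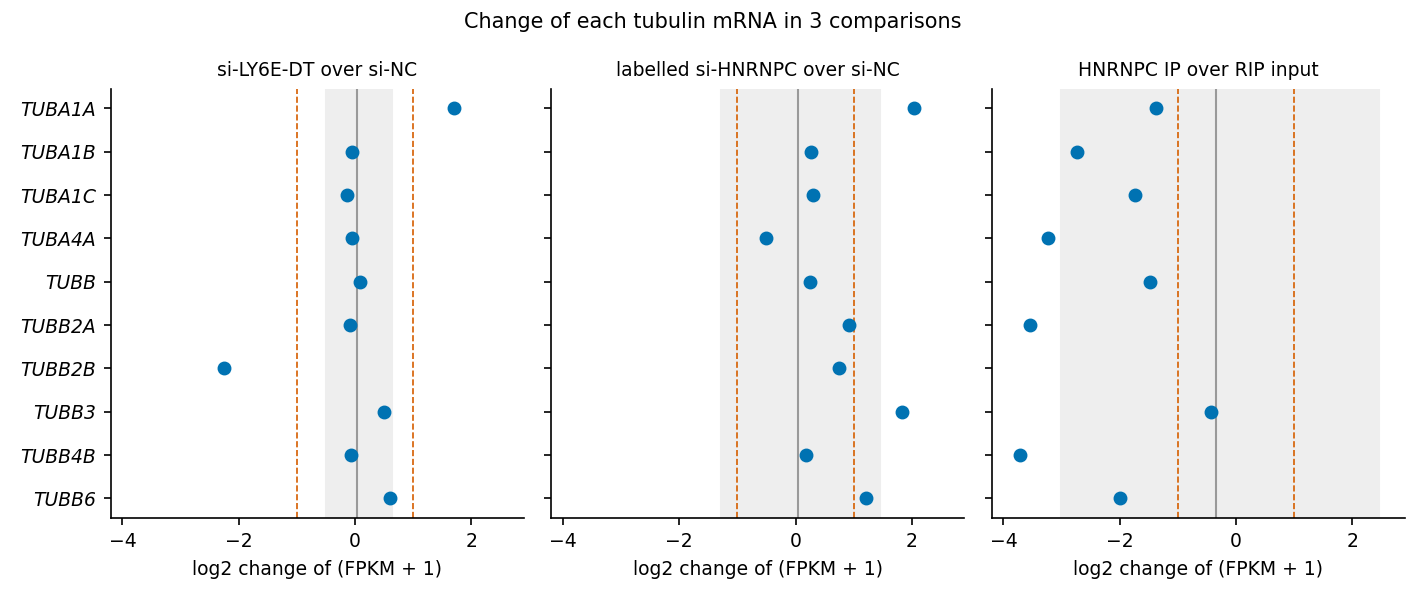
log2 change of (FPKM + 1) of each tubulin gene in si-LY6E-DT over si-NC (left), the si-HNRNPC-labelled library over si-NC (middle) and the immunoprecipitate over its input (right). Grey bands span the 5th to 95th percentile of all genes tested, grey lines their median, and dashed lines mark 2-fold. At left TUBA1A stands at 1.70 and TUBB2B, which was picked from this comparison, at −2.25, and 8 of 9 genes lie below −1 at right.

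The comparison of the si-HNRNPC-labelled library with si-NC rests on the label, which the HNRNPC level did not follow. This library lay nearer the RIP input than si-NC. The median absolute log2 change over all genes was 0.43 against the input and 0.54 against si-NC. SPARC had a value in this library and both RIP libraries, but not in si-NC. What part a difference between library sets has in the changes below was not tested. Over si-NC, 3 of the 10 tubulin genes were higher at least 2-fold and none lower, where 12.4% of 10247 genes were higher and 9.44% lower. The share of higher genes among all called genes was 56.9%, and 41.4% with a rescaling of every library that left out the 20 highest genes and those for ribosomal proteins or encoded in mitochondria. TUBA1A was at 34.5 FPKM in the si-HNRNPC-labelled library against 7.65 in si-NC (log2 2.04). TUBA1A, TUBA1B and TUBA1C summed to 411 against 319 (log2 0.36), a sum that is mostly TUBA1B and no check on TUBA1A. This si-NC library is also the reference of si-LY6E-DT, so a value of si-NC enters both comparisons. TUBB3 was at 6.81 FPKM against 1.21 (log2 1.82), and TUBB6 was at 24.96 against 10.3 (log2 1.21). Both members of the TUBB2 pair were also above si-NC without reaching 2-fold. TUBB2A was at 55.6 FPKM in the si-HNRNPC-labelled library against 29.1 in si-NC (log2 0.91), and TUBB2B was at 16.3 against 9.33 (log2 0.74), so that TUBB2B was 3.41 times below TUBB2A in the si-HNRNPC-labelled library. TUBA4A was the only member below si-NC, at 20.4 FPKM against 29.5 (log2 −0.51). TUBB and TUBB4B, at log2 0.24 and 0.17, turned to −0.02 and −0.02 with quantile normalization, and TUBB4B to −0.03 with the rescaling. The members' median was 0.52, against 0.04 over all genes.

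The RIP input gives another view of the same genes, and the comparison of si-NC with it shows how far apart these control libraries lie. They are of different kinds, a cell library and a RIP input lysate, so this distance is not a spread between like libraries. In si-NC over the RIP input 14.2% of 10264 genes were higher and 10.4% lower at least 2-fold, and of 9 tubulin genes 1 was lower and none higher. That gene was TUBB6, at 10.3 FPKM in si-NC against 36.0 in the input (log2 −1.72). TUBB6 in the si-HNRNPC-labelled library was therefore above si-NC but below the input (24.96 against 36.0 FPKM, log2 −0.51). TUBB3 in the si-HNRNPC-labelled library was above both, at 6.81 FPKM against 2.92 in the input (log2 0.99). TUBA1A (34.5 against 9.79 in the input, log2 1.72) and TUBB2A (55.6 against 17.6, log2 1.61) were higher at least 2-fold in the si-HNRNPC-labelled library than in the input, where 9.11% of 10185 genes were higher and 4.03% lower. The share of higher genes among all called in that comparison was 69.4%, 57.4% with the rescaling, 51.7% after centring and 51.8% with quantile normalization. The sum of TUBA1A, TUBA1B and TUBA1C, again mostly TUBA1B, was 411 FPKM in the si-HNRNPC-labelled library against 268 in the input (log2 0.61). TUBA1A was thus at 7.65 FPKM in si-NC and 9.79 in the input, and at 27.0 and 34.5 FPKM in si-LY6E-DT and the si-HNRNPC-labelled library. These are single libraries of different kinds, so no effect of silencing is read from these values. The mitochondrial mRNA share was 7.20% in si-NC against 29.8% in the input, CD68 was at 74.8 FPKM in the si-HNRNPC-labelled library against 4.86 in si-NC, and their part in these differences was not tested.

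In RIP, RNA that copurifies with HNRNPC is set against its input. HNRNPC is a nuclear protein that packages newly made transcripts and binds runs of U, many of them in introns. All 9 tubulin genes with values were below the input, and 8 of them at least 2-fold, where 36.9% of 10284 genes were lower and 24.2% higher. The share of higher genes among all called was 39.6%, 50.8% after centring on the median and 49.7% with quantile normalization. With quantile normalization 6 of the 9 members were lower, and TUBB was at −0.59. TUBB2B was not analysed in the RIP libraries. TUBB4B was at 15.1 FPKM in the immunoprecipitate against 211 in the input (log2 −3.71), and 1.55% of genes were at least as low. TUBB2A was at 0.602 FPKM against 17.6 (log2 −3.54), and TUBA4A was at 0.820 against 16.1 (log2 −3.23). TUBA1B was at 29.4 FPKM against 202 in the input (log2 −2.74), TUBB6 at 8.25 against 36.0 (log2 −2.00) and TUBA1C at 16.4 against 56.9 (log2 −1.74). The least changed were TUBB, at 208 FPKM in the immunoprecipitate against 583 in the input (log2 −1.48), TUBA1A, at 3.16 against 9.79 (log2 −1.38), and TUBB3, at 1.92 against 2.92 (log2 −0.42), which did not reach 2-fold.

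The members' median was −2.00, against −0.34 over all genes tested. The tubulins summed to 283 FPKM in the immunoprecipitate against 1134 in the input, or 0.180% against 0.416% of the library's FPKM sum. TUBB was less far below the input than TUBB4B, and it made up 88.9% of beta tubulin FPKM in the immunoprecipitate against 68.6% in the input, and TUBB4B 6.47% against 24.8%. The input's FPKM sum contains 29.8% mitochondrial mRNA, against 9.05% in the immunoprecipitate. Rescaling without those and other abundant genes left the same number of members, 8, lower at least 2-fold.

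These tubulin mRNAs are short, and most are poor in U runs. The 9 transcripts had a median of 1915 bases and 1 run of at least 5 U, against 3134 bases and 5 runs over 10223 genes of this comparison with an annotated transcript. TUBA1A, TUBB2A and TUBB4B held no such run, TUBA1B, TUBA4A, TUBB3 and TUBB6 held 1, TUBB held 4 and TUBA1C held 5. TUBB2B held 3. Over all genes, those without a run had a median log2 change of −2.08 in the immunoprecipitate (84.6% lower at least 2-fold, 1229 genes), and those with 5 or more runs had 0.67 (10.8% lower, 5562 genes). Genes with a transcript under 2000 bases had a median of −1.70, and those of 4000 bases or more 0.78. Among genes without a run, TUBB4B and TUBB2A lay below the median and TUBA1A above it, and TUBA1C lay below the median of genes with 5 or more runs. Genes are not independent replicates, length and U runs go together, and their part in the tubulin values was not tested.

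**Figure D4:**
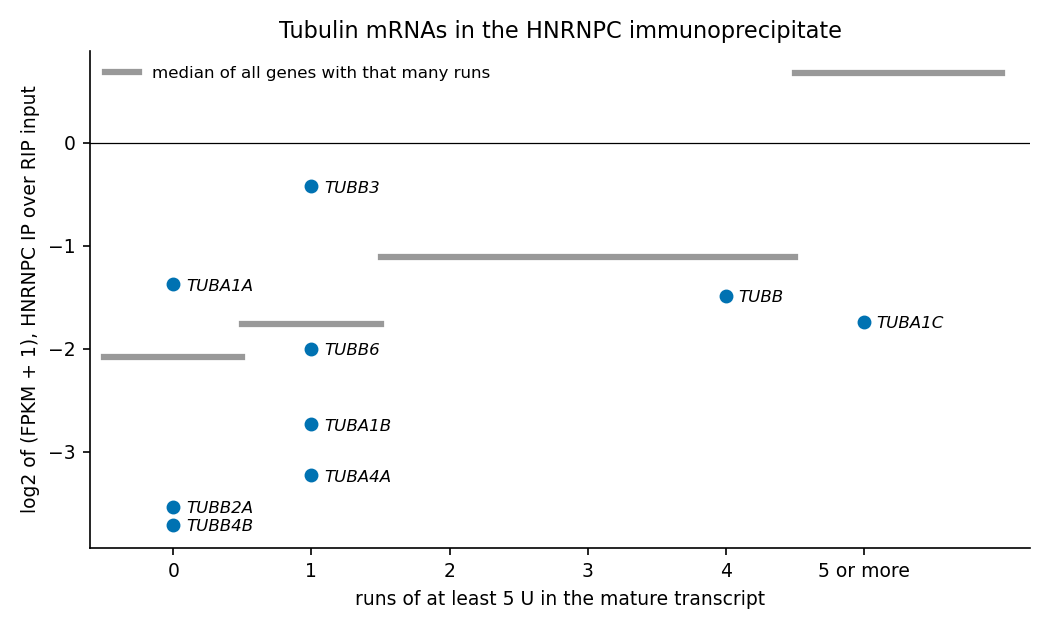
log2 of (FPKM + 1) in the HNRNPC immunoprecipitate over the RIP input for the 9 tubulin genes with values, by the number of runs of at least 5 U in the mature transcript. Grey bars are medians of all genes with no run (−2.08), 1 run (−1.76), 2 to 4 runs (−1.11) and 5 or more runs (0.67).

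The genes around tubulin were described as 8 lists, by counts past 2-fold. In si-LY6E-DT over si-NC, 1 of 118 list memberships that passed the filter reached 2-fold, beside 1.66% higher and 0.888% lower among all genes. It was TTLL11, a tubulin polyglutamylase, at 3.28 FPKM against 0.747 (log2 1.29), named after its value was seen. TTLL11 was under 1 FPKM in si-NC and passed the filter only through the library where it was high. Nothing is read from this call. List medians lay between −0.14 (tubulin folding; severing and depolymerizing) and 0.26 (tubulin modifying enzymes). TTC5 was at 0.518 FPKM in si-LY6E-DT, 2.57 in the si-HNRNPC-labelled library and 0.790 in si-NC, and at 2.57 in the immunoprecipitate and 0.725 in the input. No member of the CCR4-NOT complex reached 2-fold in si-LY6E-DT or the si-HNRNPC-labelled library over si-NC.

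In the si-HNRNPC-labelled library over si-NC, 4 of 22 folding genes were higher and none lower, beside 12.4% higher and 9.44% lower among all genes, the shares against which each count of this comparison is to be read. The 4 were ARL2, a small GTPase that acts with the tubulin cofactors (70.2 FPKM against 17.1), the prefoldin subunit PFDN5 (45.7 against 19.0), the cofactor TBCC (51.6 against 24.0) and the chaperonin subunit CCT3 (158 against 74.0), the last pair named after their values were seen. Of 12 genes of the gamma-tubulin ring complex and its anchors, which nucleate microtubules, 4 were lower and none higher, among them NEDD1 (4.83 FPKM against 15.6 in si-NC) and pericentrin PCNT (4.23 against 13.1). In si-NC over the RIP input, 7 of these 12 were higher and none lower, beside 14.2% higher and 10.4% lower among all genes. In the si-HNRNPC-labelled library over the input 1 was higher and none lower, beside 9.11% higher and 4.03% lower among all genes. Of 19 microtubule-associated and plus-end genes, EML4 (3.57 FPKM in the si-HNRNPC-labelled library against 13.4 in si-NC) and the microtubule polymerase CKAP5 (24.9 against 73.4) were lower. Of 12 severing and depolymerizing genes, 1 was higher and 3 lower, and the kinesin KIF18A was 1 of those lower (4.13 FPKM against 12.7). Of 22 kinesin and dynein genes, 2 were higher, among them the dynein light chain DYNLT1 (36.3 against 14.05), and 2 lower, among them KIF13A (2.85 against 9.71). Of 14 modifying enzymes, 1 was lower, the tubulin deacetylase HDAC6 (2.24 FPKM against 6.62, named after its value was seen). No gene named in this paragraph reached 2-fold in the si-HNRNPC-labelled library over the RIP input. KIF18A (log2 −0.94) and DYNLT1 (0.90) came nearest to it. CKAP5 (0.41), PCNT (0.47) and KIF13A (0.53) lay above the input and PFDN5 (−0.13) below, the reverse of their directions over si-NC. The other named genes kept their direction.

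In the immunoprecipitate over its input, 17 of 22 folding genes were lower and 2 higher, beside 36.9% lower and 24.2% higher among all genes, and the list's median was −2.53, beside −0.34 for all genes. PFDN6 was at 1.59 FPKM in the immunoprecipitate against 68.4 in the input, and ARL2 at 2.86 against 48.0. The autoregulation list had 7 of 11 genes higher, 1 lower and a median of 1.13, with the deadenylase CNOT8 at 38.7 FPKM against 3.58 and CNOT6 at 84.2 against 9.80. Among the 7 was TTC5 (2.57 FPKM against 0.725), which passed the filter only through the immunoprecipitate. Gamma-tubulin TUBG1 was low (3.78 FPKM against 58.0, log2 −3.63), whereas epsilon-tubulin TUBE1 was high (8.47 against 2.03, log2 1.65). The other lists had genes called in both directions, several at shares near those of all genes, with 5 higher and 6 lower of 17 microtubule-associated genes, 3 and 4 of 12 severing genes, 3 and 4 of 12 ring complex genes, 4 and 11 of 23 motor genes, and 2 and 4 of 12 modifying enzymes. Among these, CAMSAP2, which caps minus ends, was at 22.9 FPKM in the immunoprecipitate against 2.04 in the input, and MAP1S was at 0.615 against 9.73. The katanin-like KATNAL1 was at 42.0 FPKM in the immunoprecipitate against 2.84 in the input, the ring complex subunit MZT2B at 2.45 against 49.9, the dynein light chain DYNLRB1 at 5.36 against 72.6 and the tubulin tyrosine ligase TTL at 17.7 against 6.65.

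In si-NC over the RIP input 14.2% of all genes were higher and 10.4% lower. Beside these shares, 5 of 18 microtubule-associated genes were higher and none lower, among them CKAP5 (73.4 FPKM in si-NC against 18.5 in the input), and 4 of 22 motor genes were higher and 1 lower, among them the dynein heavy chain DYNC1H1 (87.8 against 19.8). The folding list had 2 genes higher and 4 lower of 22 in si-NC, the modifying enzymes 1 and 1 of 13 and the other tubulins none of 4, and the prefoldin subunit VBP1 was at 34.4 FPKM against 6.79. In the si-HNRNPC-labelled library over the input, 2 of 22 folding genes, 3 of 11 autoregulation genes and 2 of 23 motor genes were higher and none of these lower, beside 9.11% higher and 4.03% lower among all genes, so the folding and motor counts are near the share of all genes. In the same comparison 2 of 19 microtubule-associated genes were higher and 2 lower. TTC5 was 1 of the 3 autoregulation genes, and its log2 change was 1.05. It was at 0.725 FPKM in the input and passed the filter only through the library where it was high, so it could be counted only as higher.

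**Figure D5:**
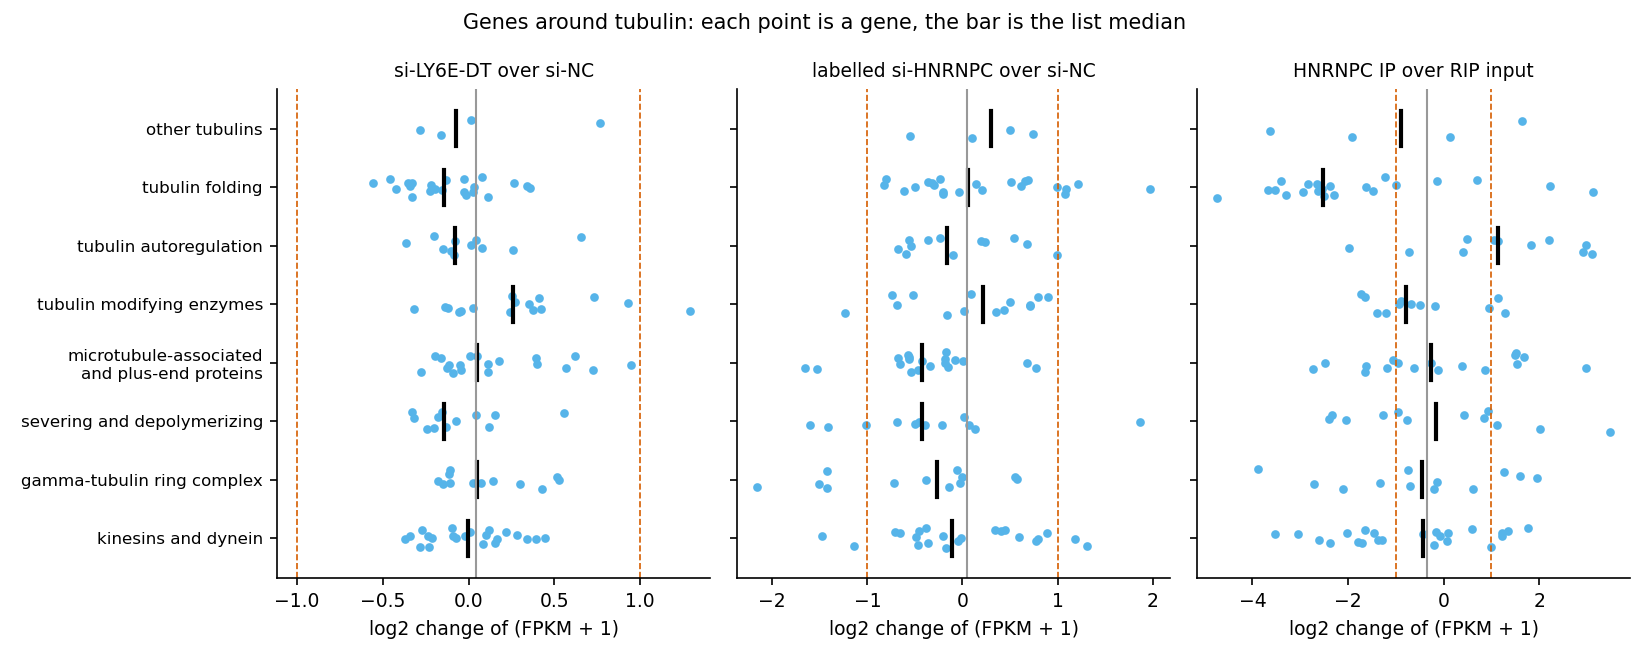
log2 change of (FPKM + 1) of genes around tubulin in 3 comparisons, 1 point per gene, with a black bar for the list median, a grey line for the median of all genes and dashed lines at 2-fold. The horizontal scale differs between panels. The folding list has its median at −2.53 and the autoregulation list at 1.13 in the immunoprecipitate.

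The pattern of TUBB2B over the 3 libraries in which it had a value was compared with 6496 other genes of at least 5 FPKM on average, by the root mean square difference of centred log2(FPKM + 1). The nearest were AL365205.1 (difference 0.15), TEN1 (0.25), OAZ2 (0.34), TMBIM1 (0.34) and MYC (0.34), in which smaller means more alike. AL365205.1 was at 2.51 FPKM in si-LY6E-DT, 26.6 in the si-HNRNPC-labelled library and 19.6 in si-NC, and MYC was at 3.22 in si-LY6E-DT, 45.8 in the si-HNRNPC-labelled library and 34.9 in si-NC. Among the tubulins that passed the minimum, TUBB2A was nearest to TUBB2B, at place 655 of the 6496, and TUBA1A was the farthest, at place 5803. The si-LY6E-DT value for which TUBB2B was picked is part of this pattern, so genes that are also low there come near it by construction. With 3 libraries such likeness is weak and describes these libraries only.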

How the data were processed

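The 5 RNA-seq libraries measured mRNA levels per gene. RNA was extracted with Trizol, per the labels' protocols. The deposited FPKM values, given per gene and library by the authors, were used as they stand. Per the submitters' processing notes, HISAT2 2.1.0, StringTie 1.3.3, cutadapt 1.17 and FastQC 0.11.7 were used with GRCh37, with no role given for any. No whole-read steps were found among low values, depth is unknown and no counting interval is given.

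Changes are log2((FPKM + 1)/(reference FPKM + 1)) over genes with values in both libraries and a mean of at least 1 FPKM, with a call at 2-fold and no test, since each group is 1 library. The computation ran in Python 3.11.15 with pandas 2.3.3, numpy 2.4.6 and, for plots, matplotlib 3.10.9, and was tested on simulated data. The simulation changed genes of at least 5 FPKM by 4-fold. It checks the computation and not the calls at low FPKM or the spread between libraries. Alternatives were pseudocounts of 0.1 and 5, other filters, centring, quantile normalization over genes listed in all 5 libraries, rescaling that left out the 20 highest genes and those for ribosomal proteins or encoded in mitochondria, and thresholds of 1.5-fold and 4-fold. Sums over paralogs were added after the data were seen. From each gene list, up to 2 genes per comparison with the largest called change and a mean of at least 5 FPKM were named, with TTC5 and the 5 genes most like TUBB2B. Some items the rule or marker lists hold are not reported here. That likeness was to be taken over 5 libraries, but TUBB2B had values in 3, so 3 were used. The members and lists were chosen with earlier results of these data known. Comparisons that share si-NC, the RIP input or the si-HNRNPC-labelled library are not independent. Transcript features are those of GENCODE 29 (GRCh38), and coordinates were left in that build.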

Additional observations from a re-analysis of the deposited data

How the results depend on the processing

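No direction of a called tubulin gene turned under any alternative run. Among recomputed log2 changes of members, 238 moved by less than 1.5-fold and 14 by more, and of member counts 34 stayed within 1.5 times and 11 did not. In si-LY6E-DT over si-NC the count of called members was 2, and 1 with quantile normalization, in which TUBB2B could not be given a value, and 1 at 4-fold. In the si-HNRNPC-labelled library over si-NC it was 3, against 1 with a pseudocount of 5, 5 at 1.5-fold and 1 at 4-fold. In the immunoprecipitate over input it was 8, and 4 at 4-fold. In si-NC over input it was 1, against 2 with a pseudocount of 0.1, 5 at 1.5-fold and 0 at 4-fold. In the si-HNRNPC-labelled library over input it was 2, against 5 at 1.5-fold and 0 at 4-fold. TUBB2B over TUBB2A in si-LY6E-DT, −3.71 on the log2 scale, was −4.43 with a pseudocount of 0.1 and −2.39 with one of 5. A higher threshold or pseudocount calls fewer genes by construction. The median of all genes in the immunoprecipitate, −0.34, was −0.03 with quantile normalization. A sum of TUBB3 with AC092143.1 gave no value, since AC092143.1 was listed in 1 library. No paired analysis was possible because each group holds 1 library. Depth is unknown, so differences of genes near 1 FPKM, such as TUBB2B in si-LY6E-DT, carry an unknown counting error.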
